A study of Homo sapiens with 6 samples.

Results

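The human mitochondrial genome is annotated with 37 genes in the deposited count table, and these are the genes described here. They were taken as the rows whose chromosome is given as MT, out of 62710 genes in all, and comprise 13 protein genes, 2 rRNA genes and 22 tRNA genes. The values came from RNA sequencing of HCT116, a human colon cancer cell line, in 6 libraries. The 3 sh-NC libraries came from cells with a scrambled control shRNA and the 3 sh-IGF2BP3 libraries from cells with an shRNA against IGF2BP3, an RNA-binding protein that attaches to mRNAs in the cytoplasm. Both lines received their shRNA by lentivirus, were selected as stable lines with puromycin, and 1 shRNA sequence against IGF2BP3 is given in the study's methods. The labels give the genotypes as negative control and IGF2BP3 knockdown and do not say whether the libraries of a group came from separate cultures, so p-values measure the spread between these libraries, which may be technical.

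The mitochondrial genome encodes a few core subunits of the respiratory chain and the RNAs of the ribosome that translates them, while all other mitochondrial proteins are made from nuclear genes and imported. It is transcribed from both strands into long precursors, which are cut largely at the tRNAs lying between the other genes, so that genes of one strand share their primary transcript. The level of each mature RNA is then also set by its processing, polyadenylation and decay.

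The total was 16146718 to 23576469 counts per library. Of the 37 genes, 30 passed the filter on low counts among 16753 genes tested in all: the 13 protein genes, both rRNA genes and 15 tRNA genes. The other 7 tRNA genes had 6 to 63 counts each over all 6 libraries. IGF2BP3 itself had 90.3, 84.1 and 70.3 CPM (counts per 1000000 of a library's scaled total) in sh-NC against 60.2, 52.3 and 55.8 CPM in sh-IGF2BP3, with no overlap (log2 fold change −0.54, adjusted p = 0.126 by edgeR's quasi-likelihood test with Benjamini-Hochberg adjustment). The epithelial markers EPCAM, CDH1, KRT8, KRT18 and KRT19 were present in every library at 87.5 counts per 1000000 or more, whereas VIL1 was at 0 to 0.186. Of the markers of other cells, PTPRC was at 0 to 0.0424 and COL1A2 at 0, while COL1A1 was at 26.8 to 58.6 and PECAM1 at 0.434 to 1.57 counts per 1000000.

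The genes lie close together, and reads that fall where neighbours share bases cannot be told apart by gene. MT-ATP8 and MT-ATP6, which encode subunits of ATP synthase, share 46 bases, and MT-ND4L and MT-ND4, which encode subunits of complex I, share 7 bases. Both overlaps are printed because the ratio of the genes within each pair is given further on. The sequences are from GENCODE 29 transcripts on GRCh38, plus strand, 5′ to 3′, with the shared bases in capitals and 15 flanking bases on each side.
MT-ATP8 and MT-ATP6, chrM:8512-8587: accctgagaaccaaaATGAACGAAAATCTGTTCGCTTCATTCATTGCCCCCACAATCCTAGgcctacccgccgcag
MT-ND4L and MT-ND4, chrM:10745-10781: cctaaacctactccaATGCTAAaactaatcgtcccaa

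Of the 36 neighbouring pairs, 5 shared bases, the others being MT-ATP6 with MT-CO3, MT-TI with MT-TQ and MT-TC with MT-TY, at 1 to 3 bases. The 3′ ends of 6 protein genes, MT-ND1, MT-ND2, MT-CO3, MT-ND3, MT-ND4 and MT-CYB, hold only the first bases of a stop codon, which the poly(A) tail completes in the mature mRNA. Of these, the ends of the 3 genes whose share of the protein-gene counts differed most in relative terms between the groups are shown with the incomplete codon in capitals, and MT-CO2, which carries a full stop codon, is shown for contrast. Each is the last 30 bases of the gene on the plus strand.
MT-ND1, chrM:4233-4262: tacaatctccagcattccccctcaaaccTA
MT-ND3, chrM:10375-10404: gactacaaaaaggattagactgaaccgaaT
MT-ND4, chrM:12108-12137: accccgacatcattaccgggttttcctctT
MT-CO2, chrM:8240-8269: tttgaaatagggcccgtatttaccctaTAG

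To compare the mitochondrial output of the libraries, the share of all counts on the 37 genes was computed first. It was 6.12%, 7.32% and 7.76% in sh-NC 1, 2 and 3 against 5.24%, 5.47% and 5.89% in sh-IGF2BP3 1, 2 and 3. The shares of the groups did not overlap, and the group means were 7.07% ± 0.852 and 5.53% ± 0.331 (SD, n = 3). The 95% Wilson interval of a library's share reached at most 0.0124 percentage points to either side, which covers counting error only. A share of counts is lower when mitochondrial counts are fewer or when counts on other genes are more numerous, and these cannot be told apart. In bulk RNA, fewer cells of a type and less RNA per cell cannot be told apart either.

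The share was then split by class of gene. The 13 protein genes took 4.69%, 5.65% and 6.42% of the counts in sh-NC against 4.04%, 3.76% and 4.32% in sh-IGF2BP3. The rRNA genes took 1.40%, 1.64% and 1.32% in sh-NC against 1.18%, 1.69% and 1.54% in sh-IGF2BP3. The tRNA genes took 0.0296%, 0.0282% and 0.0302% in sh-NC against 0.0211%, 0.0232% and 0.0260% in sh-IGF2BP3. The protein and tRNA genes were thus lower in all 3 sh-IGF2BP3 libraries, and the rRNA genes overlapped. Per 100 counts on protein genes, the rRNA genes had 29.9, 29.1 and 20.5 counts in sh-NC against 29.3, 44.8 and 35.6 counts in sh-IGF2BP3, so that sh-IGF2BP3 1 lay among the sh-NC libraries and the other sh-IGF2BP3 libraries above them.

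**Figure D1:**
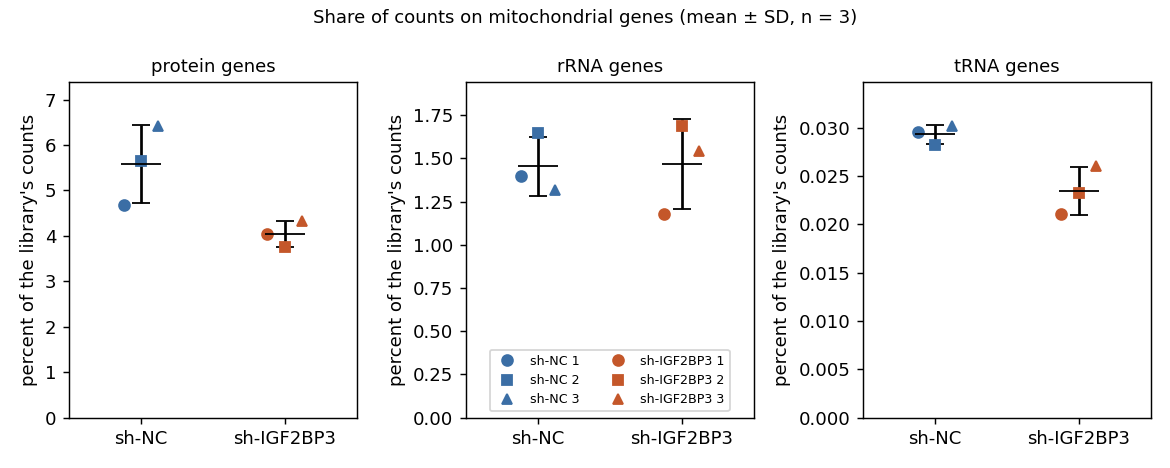
Percent of each library's counts on mitochondrial protein, rRNA and tRNA genes, with 1 point per library and the mean ± SD of each group (n = 3) in black. The sh-IGF2BP3 points lie below the sh-NC points for the protein genes (3.76% to 4.32% against 4.69% to 6.42%) and the tRNA genes, and on both sides of them and among them for the rRNA genes (1.18%, 1.69% and 1.54% against 1.32% to 1.64%).

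Across the protein genes, the median log2 fold change (sh-IGF2BP3 minus sh-NC) was −0.303, against −0.0145 over all genes tested, with 11 genes below 0 and 2 above. Over all genes tested, 51.0% were below 0. None of the 13 was called at a fold change over 1.5 and an adjusted p under 0.05, and neither was any other gene of the table (0.0% of 16753) by edgeR's quasi-likelihood test. At an unadjusted p under 0.05, 3 of the 13 were lower (background 8.54% of all genes) and 1 was higher (background 13.6%). For 8 of the 13, the 3 sh-IGF2BP3 values all lay below the 3 sh-NC values, against 11.0% of all genes, and for 0 of the 13 they all lay above, against 13.2% of all genes. Scaled by total counts alone, 7 of the 13, without MT-ND6, lay below in this way, against 13.4% of all genes. Since genes of one strand share a precursor, the 13 are not independent of each other.

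GC content and these fold changes moved together over all genes tested (Spearman's rho 0.611, with points that share libraries). Over the 13 protein genes rho was −0.0879. Their GC content was 39.6% to 47.7% with a median of 44.3%, all below the median of 48.7% over all genes. So few genes in so narrow a range cannot show whether the trend holds among them. When each library's trends with GC content and length were removed, the median of the 13 was −0.234, with 3 genes above 0, and 6 of them, without MT-ND6 and MT-ATP8, were lower in every sh-IGF2BP3 library (background 6.67%).

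Complex I, NADH dehydrogenase, takes 7 subunits from the mitochondrial genome, and it held both the lowest and the highest fold change of the protein genes. MT-ND4, a subunit of its proton-pumping membrane arm, had 6736, 7126 and 7784 CPM in sh-NC against 4470, 4217 and 5365 CPM in sh-IGF2BP3. All 3 sh-IGF2BP3 libraries were lower, with a log2 fold change of −0.62 (SE 0.20) and an adjusted p of 0.122 by edgeR's quasi-likelihood test. MT-ND5, another pump subunit of the membrane arm, had 4910, 5484 and 5408 CPM in sh-NC against 3760, 3559 and 4472 CPM in sh-IGF2BP3. It too was lower in all 3 (log2 fold change −0.42, SE 0.20, unadjusted p = 0.0482 by edgeR). The result for MT-ND4 depended on the method: DESeq2 called it lower (adjusted p = 0.0351, 1.05% of 13087 genes called lower), as did edgeR without sh-NC 1 (adjusted p = 0.0421, 5.67% called lower), and over 17 alternatives its adjusted p was 0.0351 to 0.638 with a log2 fold change of −0.74 to −0.53.

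MT-ND3, a small membrane subunit of complex I, went the other way in a pair of libraries. It had 211, 274 and 237 CPM in sh-NC against 368, 465 and 235 CPM in sh-IGF2BP3. Libraries sh-IGF2BP3 1 and 2 were above every sh-NC library, whereas sh-IGF2BP3 3 lay within the sh-NC range, and the log2 fold change was 0.56 (SE 0.23, unadjusted p = 0.0280 and adjusted p = 0.177 by edgeR's quasi-likelihood test). It was 0.33 without sh-IGF2BP3 2 and 0.78 without sh-IGF2BP3 3. MT-ND1, which lies at the joint of the membrane arm and the matrix arm, had 1671, 1752 and 1518 CPM in sh-NC against 1835, 1581 and 1714 CPM in sh-IGF2BP3. These groups overlapped throughout (log2 fold change 0.05, SE 0.19). It was the only protein gene apart from MT-ND3 above 0, and it was at −0.02 to 0.11 over the alternatives.

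The other complex I genes were below 0. MT-ND2, also a pump subunit, had 1713 to 2106 CPM in sh-NC against 1577 to 1796 CPM in sh-IGF2BP3 with overlap (log2 fold change −0.19). MT-ND4L, the short membrane subunit that shares bases with MT-ND4, had 1498, 2158 and 2437 CPM in sh-NC against 1245, 1649 and 1555 CPM in sh-IGF2BP3. Only sh-NC 1 kept its groups from separating, and its log2 fold change was −0.45 (SE 0.22). MT-ND6, the only protein gene of the minus strand, had 817, 865 and 865 CPM in sh-NC against 783, 725 and 705 CPM in sh-IGF2BP3, lower without overlap but by little (log2 fold change −0.20, SE 0.18). Scaled by total counts alone, its groups overlapped. How strand was used in counting is not given, so reads of MT-ND6 and of plus-strand RNA across it cannot be told apart.

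Complex IV, cytochrome c oxidase, has its catalytic core encoded by MT-CO1, MT-CO2 and MT-CO3. MT-CO1, which carries the oxygen-reducing centre, had 13747, 15970 and 17309 CPM in sh-NC against 10165, 9960 and 12845 CPM in sh-IGF2BP3. It was lower in every sh-IGF2BP3 library (log2 fold change −0.51, SE 0.21, unadjusted p = 0.0267 and adjusted p = 0.173 by edgeR). MT-CO2, which accepts electrons from cytochrome c, had 4204, 5225 and 5391 CPM in sh-NC against 5010, 5000 and 3980 CPM in sh-IGF2BP3, with overlap (log2 fold change −0.08). MT-CO3 had 5538, 5875 and 6383 CPM in sh-NC against 4729, 4656 and 5107 CPM in sh-IGF2BP3. Here the groups did not overlap, with a log2 fold change of −0.30 (SE 0.19).

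The remaining protein genes were each lower without overlap. MT-CYB, cytochrome b and the mitochondrially encoded subunit of complex III, had 3019, 3096 and 3688 CPM in sh-NC against 2491, 2411 and 2689 CPM in sh-IGF2BP3 (log2 fold change −0.37, SE 0.19). MT-ATP6, part of the proton channel of ATP synthase, had 4607, 4839 and 5465 CPM in sh-NC against 3667, 3515 and 4138 CPM in sh-IGF2BP3 (log2 fold change −0.40, SE 0.20). MT-ATP8 had 215, 211 and 247 CPM in sh-NC against 187, 191 and 167 CPM in sh-IGF2BP3 (log2 fold change −0.30, SE 0.18). With the GC and length trends removed, MT-ATP8 alone of the 13 crossed from below to above 0, at 0.07.

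**Figure D2:**
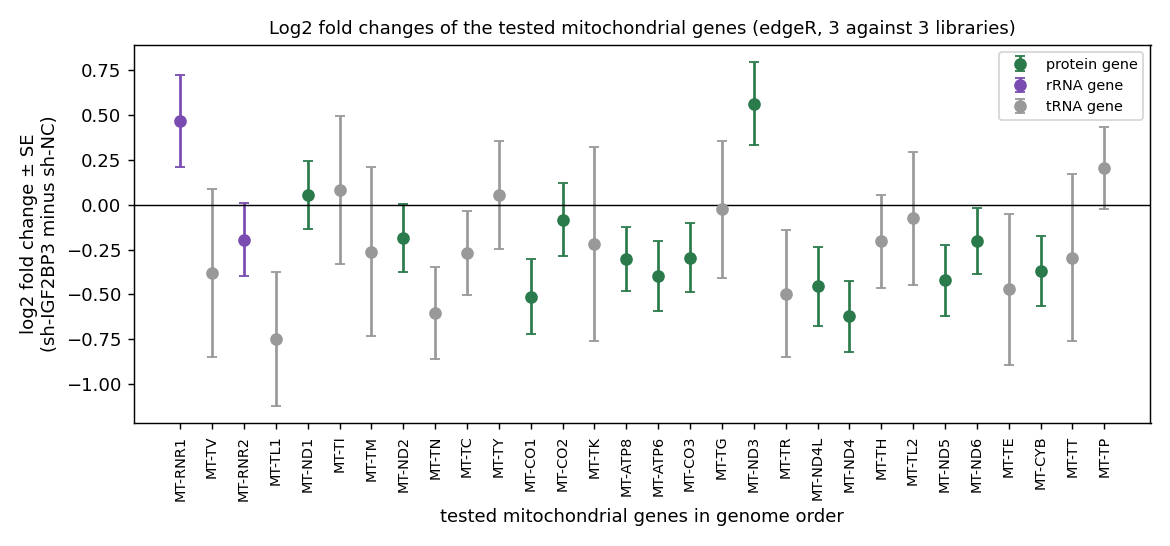
Log2 fold change of sh-IGF2BP3 against sh-NC for the 30 tested mitochondrial genes in genome order, with the standard error of the edgeR fit (3 against 3 libraries) as bars. Of the protein genes, MT-ND3 stands at 0.56 between MT-CO3 at −0.30 and MT-ND4L at −0.45, and the tRNA genes have the longest bars.

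Because the total of the protein genes differed between libraries, the share of each gene among their counts was also compared, which does not depend on the scaling of the library. MT-ND3 took 0.432%, 0.498% and 0.404% of these counts in sh-NC against 0.914%, 1.17% and 0.525% in sh-IGF2BP3. It was higher in all 3 sh-IGF2BP3 libraries, at a ratio of the means of 1.96, and sh-IGF2BP3 3 was just above the highest sh-NC library. The difference of 0.425 percentage points became 0.274 without sh-IGF2BP3 2 and 0.597 without sh-IGF2BP3 3. MT-ND1 took 3.42%, 3.19% and 2.59% in sh-NC against 4.56%, 3.98% and 3.83% in sh-IGF2BP3. MT-ND2 (3.37% to 3.83% against 3.85% to 4.52%) and MT-CO3 (10.7% to 11.3% against 11.4% to 11.7%) were likewise higher without overlap. A gene's share also rises when other genes of the sum fall, so a higher share is not a higher level. In CPM, MT-CO3 was lower in every sh-IGF2BP3 library, and MT-ND2 overlapped with a log2 fold change of −0.19.

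In the opposite direction, MT-ND4 took 13.78%, 12.96% and 13.26% in sh-NC against 11.10%, 10.62% and 12.004% in sh-IGF2BP3. For each of these 5 genes the two-sided exact permutation test gave p = 0.1, the smallest that 3 against 3 libraries allow. The share of MT-CO1 was 28.12%, 29.05% and 29.48% in sh-NC against 25.23%, 25.07% and 28.74% in sh-IGF2BP3. That of MT-CO2 was 8.599%, 9.504% and 9.182% in sh-NC against 12.43%, 12.59% and 8.905% in sh-IGF2BP3. In both genes sh-IGF2BP3 1 and 2 stood apart from the sh-NC libraries and sh-IGF2BP3 3 lay within their range (exact permutation p = 0.2 and 0.3, two-sided).

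The same library stood apart over all 13 genes. The median absolute log2 difference in share was 0.0589 between sh-IGF2BP3 1 and 2, but 0.171 and 0.197 between either of them and sh-IGF2BP3 3. Between sh-IGF2BP3 3 and the sh-NC libraries it was 0.0751 to 0.119, which is about the difference between sh-NC libraries (0.0683 to 0.101). In level, sh-IGF2BP3 3 was the nearest of its group to sh-NC, with a median deviation of the 13 genes of −0.09 on the log2 scale against −0.20 and −0.13 in sh-IGF2BP3 1 and 2. This order depended on the processing. With the GC and length trends removed, the deviations were −0.022, −0.174 and −0.062 in sh-IGF2BP3 1, 2 and 3, and sh-IGF2BP3 1 was the nearest. What sets sh-IGF2BP3 3 apart in the shares was not tested.

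**Figure D3:**
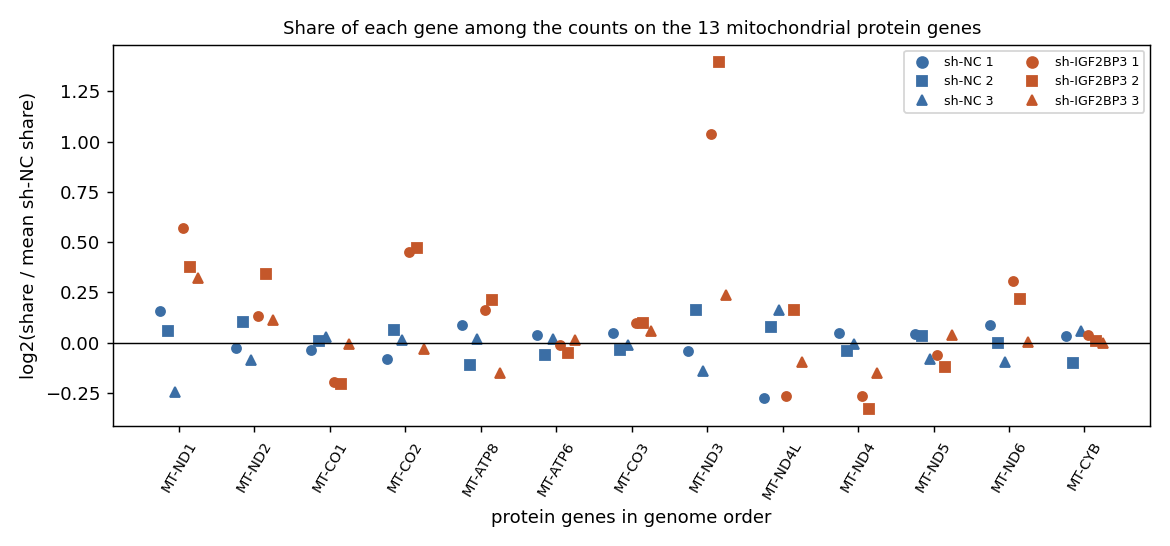
Log2 ratio of each gene's share of the protein-gene counts to its mean share in sh-NC, with 1 point per library. The points of sh-IGF2BP3 1 and 2 lie well above 0 for MT-ND3 and MT-CO2 and below 0 for MT-CO1 and MT-ND4, while those of sh-IGF2BP3 3 lie nearer to sh-NC.

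By complex, the shifts within the protein genes largely cancelled. The complex I genes together took 35.4% ± 0.855 of the protein-gene counts in sh-NC against 35.1% ± 0.237 in sh-IGF2BP3 (SD, n = 3). Those of complex IV took 48.9% ± 0.789 and 49.3% ± 0.186. MT-CYB of complex III took 6.03% ± 0.349 and 6.09% ± 0.0859, and the ATP synthase genes 9.59% ± 0.360 and 9.51% ± 0.160. All 4 differences were within the spread of the libraries. Within complex I, the lower share of MT-ND4 stood against higher shares of MT-ND1, MT-ND2 and MT-ND3, and within complex IV the lower share of MT-CO1 in sh-IGF2BP3 1 and 2 stood against a higher one of MT-CO2.

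Levels can be compared between genes per length, on the FPKM scale (fragments per kilobase, scaled to the library's total). In sh-NC the order began with MT-CO1 at 10483 ± 1866 FPKM and MT-CO3 at 7789 ± 1067, and ended with MT-ATP8 at 1115 ± 165 and MT-ND3 at 716 ± 117 (SD, n = 3). In sh-IGF2BP3 MT-RNR1 came first at 7584 ± 2179 FPKM, followed by MT-CO1 at 6926 ± 1010. The highest protein gene was 14.6 times the lowest in sh-NC against 8.11 times in sh-IGF2BP3. MT-CO1 was above MT-CO3 in all 6 libraries, MT-ND4 above MT-ND5, MT-CYB above MT-ND2, and MT-ND6 above MT-ATP8. In the order of the sh-NC means, MT-CO3 also exceeded MT-ATP6 in every library, whereas MT-ATP6, MT-CO2, MT-ND4L and both rRNA genes changed places between libraries, as did MT-RNR2 with MT-ND4, MT-ND5 with MT-CYB, MT-ND1 with MT-ND2 and MT-ND6, and MT-ATP8 with MT-ND3. The order of these neighbours thus did not hold over all 6 libraries, which mixes the spread within a group with differences between the groups. MT-ATP8 was above MT-ND3 in every sh-NC library and in sh-IGF2BP3 3, and below it in sh-IGF2BP3 1 and 2.

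Ratios of levels were then compared within each library, for genes that share a precursor or lie next to each other. MT-ND3 per MT-ND4 was 0.125, 0.153 and 0.121 in sh-NC against 0.328, 0.439 and 0.174 in sh-IGF2BP3 on the FPKM scale, higher in all 3 sh-IGF2BP3 libraries (two-sided exact permutation p = 0.1). MT-ND3 per MT-CO3, its nearest protein gene upstream, was 0.0865, 0.106 and 0.0842 in sh-NC against 0.176, 0.226 and 0.104 in sh-IGF2BP3, where sh-IGF2BP3 3 lay just below sh-NC 2 (two-sided exact permutation p = 0.2). The first of these ratios joins the protein genes with the highest and the lowest fold change. MT-CO2 per MT-CO1 was 0.689, 0.738 and 0.702 in sh-NC against 1.11, 1.13 and 0.698 in sh-IGF2BP3. MT-ND6 of the minus strand per MT-ND5, its neighbour on the plus strand, was 0.574, 0.545 and 0.552 in sh-NC against 0.718, 0.703 and 0.544 in sh-IGF2BP3. In both of these ratios sh-IGF2BP3 1 and 2 were above every sh-NC library, while sh-IGF2BP3 3 lay within the sh-NC range for MT-CO2 per MT-CO1 and just below it for MT-ND6 per MT-ND5 (exact permutation p = 0.3 and 0.4, two-sided). Since the use of strand in counting is not given, plus-strand RNA across MT-ND6 may be part of the latter ratio.

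For the pairs that share one mRNA, MT-ATP8 per MT-ATP6 was 0.143 to 0.154 in sh-NC against 0.133 to 0.179 in sh-IGF2BP3, and MT-ND4L per MT-ND4 was 1.03 to 1.45 and 1.29 to 1.81. Both ratios overlapped between the groups. Genes of one bicistronic mRNA are present in equal numbers, yet MT-ATP8 stood at a small part of the level of MT-ATP6. Its length of 207 bases, of which 46 are shared with MT-ATP6, limits the reads that can be assigned to it, and the effect of this on the ratio was not tested.

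The rRNA genes encode the RNAs of the small (MT-RNR1) and large (MT-RNR2) subunit of the mitochondrial ribosome. MT-RNR1 had 5270, 6778 and 4195 CPM in sh-NC against 4827, 8900 and 8726 CPM in sh-IGF2BP3. Libraries sh-IGF2BP3 2 and 3 were above every sh-NC library and sh-IGF2BP3 1 among them (log2 fold change 0.47, SE 0.26, adjusted p = 0.298 by edgeR). The log2 fold change was 0.29 without sh-NC 3 and 0.71 without sh-IGF2BP3 1. MT-RNR2 had 9334, 9242 and 7845 CPM in sh-NC against 6963, 8911 and 7200 CPM in sh-IGF2BP3. Its groups overlapped on this scale (log2 fold change −0.20, SE 0.20) and did not on the FPKM scale, where sh-IGF2BP3 was lower (5500 to 6087 against 4468 to 5413 FPKM). Per length, MT-RNR1 over MT-RNR2 was 0.923, 1.20 and 0.874 in sh-NC against 1.13, 1.63 and 1.98 in sh-IGF2BP3, so that sh-NC 2 lay above sh-IGF2BP3 1 (two-sided exact permutation p = 0.2). The labels name a TruSeq RNA kit and total RNA but no step that selects poly(A) RNA or removes rRNA, and how much rRNA such a step leaves could not be seen in these counts.

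Of the tRNA genes, a few took most counts. Those printed here are the 4 with most counts, 5′ to 3′ on the strand of the gene, from the same transcripts and with no base in capitals.
MT-TC, chrM:5761-5826, minus strand: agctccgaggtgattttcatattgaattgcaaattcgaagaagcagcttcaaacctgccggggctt
MT-TP, chrM:15956-16023, minus strand: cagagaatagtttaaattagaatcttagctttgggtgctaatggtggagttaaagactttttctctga
MT-TN, chrM:5657-5729, minus strand: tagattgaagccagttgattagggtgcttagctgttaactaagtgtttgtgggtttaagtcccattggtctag
MT-TH, chrM:12138-12206, plus strand: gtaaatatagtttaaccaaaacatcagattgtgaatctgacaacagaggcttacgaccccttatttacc

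Summed over the libraries, MT-TC, the tRNA gene for cysteine, had 44.2% of the 29685 tRNA counts, MT-TP for proline 17.3% and MT-TN for asparagine 16.7%, together 78.2%. All 3 lie on the minus strand, as do 8 of the 22 tRNA genes, and minus-strand tRNA genes took 79.2% to 88.3% of a library's tRNA counts. They are read from the strand opposite to the mRNAs on either side, MT-TC and MT-TN between MT-ND2 and MT-CO1 and MT-TP beyond MT-CYB. The use of strand in counting is not given in the sources used here, so reads of such a tRNA and of plus-strand precursors across it cannot be told apart. MT-TH for histidine, the plus-strand tRNA gene with most counts, directly follows MT-ND4. On the FPKM scale, MT-TH per MT-ND4 was 0.0398, 0.0695 and 0.0688 in sh-NC against 0.0697, 0.0991 and 0.0744 in sh-IGF2BP3. It was higher in all 3 (two-sided exact permutation p = 0.1), with sh-IGF2BP3 1 just above sh-NC 2, and MT-ND4 itself was lower in all 3. The ratios MT-TC per MT-ND6 and MT-ND1 per MT-RNR2 overlapped between the groups.

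In MT-TC, sh-NC had 169, 104 and 113 CPM and sh-IGF2BP3 85.7, 92.9 and 141 CPM. MT-TN had 30.7, 66.1 and 57.7 CPM in sh-NC against 31.6, 42.1 and 28.3 CPM in sh-IGF2BP3. For MT-TC sh-IGF2BP3 3, and for MT-TN sh-NC 1, kept the groups from separating. MT-TN had the lowest adjusted p of the tRNA genes (log2 fold change −0.60, SE 0.26, adjusted p = 0.188 by edgeR), which was 0.0106 without sh-NC 1 (5.67% of genes called lower) and 0.0106 to 0.957 over 17 alternatives. Its log2 fold change was −0.86 without sh-NC 1, −0.37 without sh-NC 2 and −0.06 with the GC and length trends removed. MT-TL1, a leucine tRNA gene between MT-RNR2 and MT-ND1, had 9.14, 11.4 and 11.7 CPM in sh-NC against 3.37, 4.32 and 11.5 CPM in sh-IGF2BP3. Again sh-IGF2BP3 3 alone reached the sh-NC values (log2 fold change −0.75, SE 0.37, adjusted p = 0.250 by edgeR), and without this library the adjusted p was 0.0355 (0.0805% of 17399 genes called lower), in a range of 0.0355 to 0.645 over 17 alternatives. Its log2 fold change was −1.49 without sh-IGF2BP3 3 and −0.44 without sh-IGF2BP3 1.

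The groups of all 15 tested tRNA genes overlapped. Their log2 fold changes had a median of −0.263, with 12 below 0 and 3 above 0, namely MT-TP at 0.20, MT-TI at 0.08 and MT-TY at 0.05. The others below 0 were MT-TR at −0.50, MT-TE at −0.47, MT-TV at −0.38, MT-TT at −0.30, MT-TC at −0.27, MT-TM at −0.26, MT-TK at −0.22, MT-TH at −0.20, MT-TL2 at −0.08 and MT-TG at −0.03. This count turned once the trends with GC content and length were removed, to 4 below 0 and 11 above 0 with a median of 0.268. Of the 22 genes, 13 had fewer than 100 counts in every library. MT-TA had most counts of the 7 not tested, with 63.

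**Figure D4:**
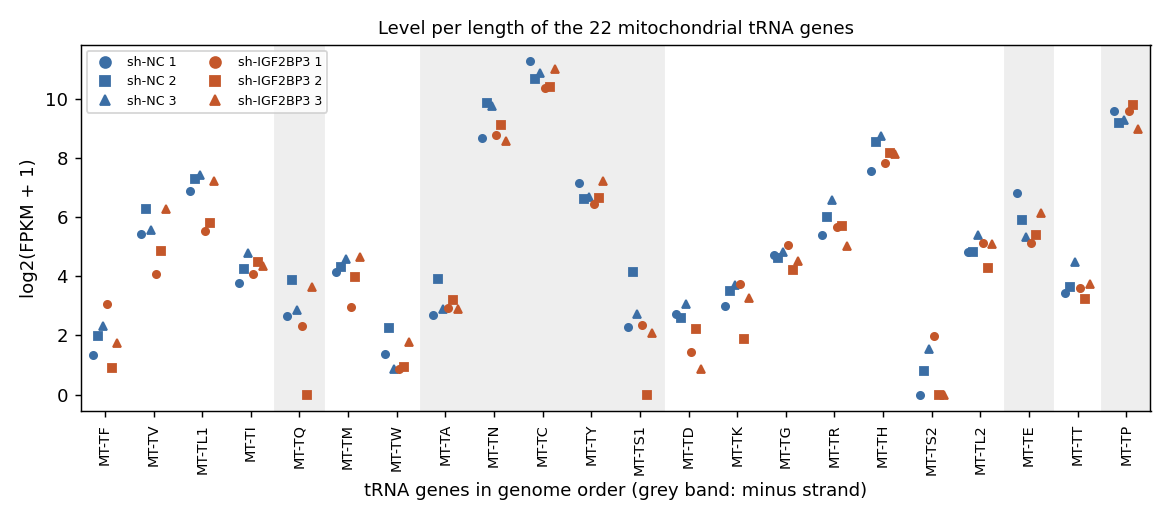
Log2(FPKM + 1) of the 22 mitochondrial tRNA genes in genome order, with 1 point per library and grey bands behind the minus-strand genes. MT-TC reaches 1301 to 2455 FPKM and MT-TS2 stays at or below 2.91 FPKM, and the points of the groups mix in nearly every gene.

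Nuclear copies of mitochondrial genes can take up reads of the genes themselves. By symbol, 402 such copies were in the table and 98 had at least 1 count. Those with most counts lay together on chromosome 1, namely MTATP6P1 (chr1:633696-634376), MTND2P28 (chr1:629640-630683) and MTCO1P12 (chr1:631074-632616). In the GENCODE 29 transcripts they differed from MT-ATP6, MT-ND2 and MT-CO1 at 10, 17 and 20 bases, which is an identity of 98.5%, 98.4% and 98.7%.

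MTATP6P1 had 2073, 8518 and 6019 counts in sh-NC against 1485, 1544 and 2179 counts in sh-IGF2BP3. Per 100 counts on MT-ATP6 this was 2.54, 7.27 and 5.63 in sh-NC against 2.32, 2.87 and 2.99 in sh-IGF2BP3, so that sh-NC 2 and 3 were high and sh-NC 1 lay with sh-IGF2BP3. For MTND2P28 it was 4.36 to 5.12 per 100 counts on MT-ND2 in sh-NC against 3.87 to 4.92 in sh-IGF2BP3. With all its copies added, MT-ATP6 was still lower in every sh-IGF2BP3 library (0.453% to 0.631% of the counts against 0.342% to 0.412%). For MT-CO1 the copies came to 0.0709 counts per 100 of the gene. In the other 10 protein genes they came to at most 0.132 per 100 (MT-ND3), with MTATP8P1, MTCO2P27, MTCO3P43, MTCYBP18, MTND1P9, MTND3P25, MTND4P12, MTND4LP14, MTND5P11 and MTND6P4 as the copies with most counts.

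To place these levels beside the nuclear genes that make and use mitochondrial RNA, 6 lists of mitochondrial gene expression with 80 genes were examined. No member passed the adjusted threshold. Of the 80, 38 had a log2 fold change above 0, 10 were higher without overlap (12.5%, against the 13.2% of all genes) and 6 were lower (7.5%, against 11.0% of all genes). The medians of the log2 fold change were 0.166 for mtDNA replication, −0.02 for transcription, −0.07 for RNA processing, −0.05 for RNA stability and polyadenylation, 0.233 for RNA modification and −0.106 for translation factors. With the GC and length trends removed, they were 0.144, 0.105, 0.214, 0.125, 0.204 and 0.0853 in the same order, all above 0. The members above 0 then numbered 11, 7, 8, 9, 16 and 9, so neither these signs nor the 38 of 80 held.

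For transcription, POLRMT, the mitochondrial RNA polymerase, had 140, 102 and 86.1 CPM in sh-NC against 222, 172 and 131 CPM in sh-IGF2BP3. Only sh-NC 1 reached the lowest sh-IGF2BP3 library (log2 fold change 0.68, SE 0.23, adjusted p = 0.127 by edgeR), and the GC content of POLRMT was 66.3%. TFAM, which packages mitochondrial DNA and opens its promoters, had 98.1, 87.0 and 69.7 CPM in sh-NC against 61.5, 104 and 89.6 CPM in sh-IGF2BP3, with a log2 fold change of −0.0016. MTERF1, which binds within the gene of MT-TL1, was at −0.47 and TEFM, the elongation factor, at 0.35. Among the replication genes, DGUOK was at 0.60, SSBP1 at 0.53 and TOP1MT at 0.48, and all 3 were higher without overlap.

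LRPPRC, which with SLIRP holds mitochondrial mRNAs stable, had 562, 542 and 502 CPM in sh-NC against 344, 456 and 521 CPM in sh-IGF2BP3, where sh-IGF2BP3 3 lay within the sh-NC range (log2 fold change −0.28, SE 0.20). SLIRP had 18.17, 16.48 and 10.98 CPM in sh-NC against 17.21, 35.58 and 17.43 CPM in sh-IGF2BP3 (log2 fold change 0.62, SE 0.29), with overlap. FASTK, whose protein binds the RNA of MT-ND6, was higher without overlap (0.51), and FASTKD1 (−0.44) and the exoribonuclease PNPT1 (−0.43) were lower without overlap. In RNA processing, NGRN was at 0.76, HSD17B10, a subunit of mitochondrial RNase P, at 0.70 and PTCD1 at 0.59, all with overlap. In RNA modification, PUS1 was at 0.66, GTPBP3 at 0.56 and MRM1 at 0.75, of which MRM1 did not overlap.

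Of the translation factors, TACO1, which activates translation of MT-CO1, had 10.7, 6.90 and 5.72 CPM in sh-NC against 22.1, 19.9 and 11.8 CPM in sh-IGF2BP3. It was higher in all 3 sh-IGF2BP3 libraries (log2 fold change 1.21, SE 0.30, adjusted p = 0.103 by edgeR). TUFM, the elongation factor, was at 0.58 and GUF1 at −0.41. By DESeq2, TACO1 was the only one of the 78 genes of these lists with an adjusted p that was called (4.29% of 13087 genes called higher).

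The respiratory complexes are built from both genomes, so their nuclear subunits were set beside the mitochondrial ones. The median log2 fold change of the nuclear subunits was 0.54 for complex I (37 genes), 0.56 for complex III (9 genes), 0.69 for complex IV (11 genes) and 0.56 for ATP synthase (17 genes). For the mitochondrially encoded subunits of the same complexes it was −0.20, −0.37, −0.30 and −0.35. Of the 74 nuclear subunits, 68 were above 0, 22 (29.7%, against 13.2% of all genes) were higher without overlap and 0 were lower (against 11.0% of all genes). None had an adjusted p under 0.05 by edgeR, while DESeq2 called 11 of 73 higher, against 4.29% of all genes. With the GC and length trends removed, the medians of the nuclear subunits were 0.403, 0.504, 0.75 and 0.563. The difference between the genomes within a complex was not tested.

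The nuclear subunits with the smallest unadjusted p were NDUFS7 (1.67), NDUFB7 (1.12) and NDUFA2 (0.99) of complex I and UQCR10 (1.37), UQCRQ (1.01) and UQCRH (0.65) of complex III, with the log2 fold change in brackets. In complex IV they were COX8A (1.67), COX6A1 (1.57) and COX5B (0.93), and in ATP synthase ATP5MF (1.25), ATP5F1D (0.95) and ATP5ME (1.03). NDUFS7, which carries an iron-sulfur cluster, had 8.41, 5.78 and 4.14 CPM in sh-NC against 24.4, 25.3 and 8.63 CPM in sh-IGF2BP3, higher in all 3 but least in sh-IGF2BP3 3. COX6A1 had 11.9, 11.9 and 10.2 CPM in sh-NC against 40.6, 50.2 and 9.94 CPM in sh-IGF2BP3, so that sh-IGF2BP3 3 lay below every sh-NC library.

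Library by library, the subunits of the 2 genomes were ordered differently. The mitochondrial protein genes deviated from their mean over the 6 libraries by a median of 0.05, 0.14 and 0.26 on the log2 scale in sh-NC 1, 2 and 3 and by −0.20, −0.13 and −0.09 in sh-IGF2BP3 1, 2 and 3. The nuclear subunits of complex I deviated by −0.03, −0.26 and −0.51 in sh-NC against 0.29, 0.52 and −0.07 in sh-IGF2BP3. Library sh-NC 3 was thus highest for the mitochondrial and lowest for the nuclear subunits, and sh-IGF2BP3 3 overlapped with sh-NC for the nuclear subunits of complexes I and IV and of ATP synthase.

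**Figure D5:**
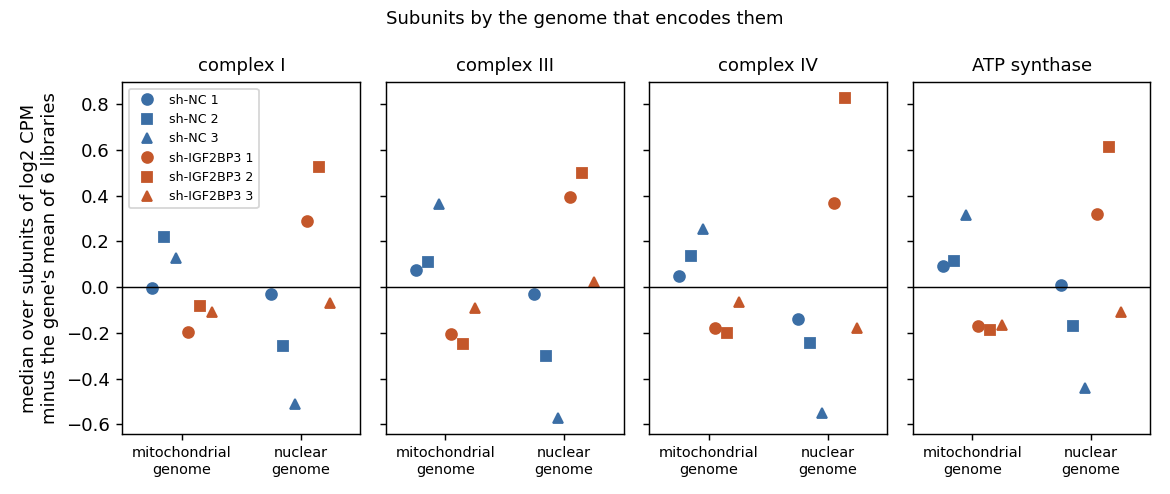
Median over subunits of log2 CPM minus the gene's mean of the 6 libraries, by complex and by the genome that encodes the subunits, with 1 point per library. The sh-IGF2BP3 points lie below the sh-NC points for the mitochondrial genome in all 4 complexes, and above most of them for the nuclear genome, where sh-IGF2BP3 3 lies lowest of its group.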

How the data were processed

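RNA of 6 HCT116 libraries was measured by sequencing. The authors deposited raw counts per gene and FPKM values. The submitters' processing notes name CASAVA and GRCh38, and the aligner, the counting tool and the use of strand are not given in the sources used here. edgeR 4.0.16 under R 4.3.3 (filterByExpr, TMM, quasi-likelihood test, Benjamini-Hochberg adjustment over all genes tested) compared sh-IGF2BP3 with sh-NC on the counts. Genes were called at a fold change over 1.5 and an adjusted p under 0.05, the thresholds of the study's methods. Log2 CPM used a prior count of 2. GC content was that of a gene's longest transcript in GENCODE 29 (known for 96.9% of genes tested), with trends fitted as splines of 5 degrees of freedom. Alternatives used DESeq2 1.42.0, limma 3.58.1 on log2(FPKM + 1) and log2(FPKM + 0.1), other scalings and filters, the replicate block and each library left out. Exact permutation tests used scipy 1.17.1. The fits were tested on simulated counts with the same dispersion for all genes, set to stand for replicates that differ little. Their performance at the spread of the real libraries was not tested. The members and gene lists were chosen with earlier results of these data known. Named were all protein and rRNA genes, each tested tRNA gene, the 3 genes of each list with the smallest unadjusted p, the nuclear copy with most counts of each gene, and POLRMT, TFAM, LRPPRC, SLIRP and IGF2BP3.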

Additional observations from a re-analysis of the deposited data

How the results depend on the processing

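The median log2 fold change of the protein genes was −0.378 to −0.234 over 17 alternatives, and 10 of the 13 genes kept their direction in all of them. The count of mitochondrial genes called was 0 in the reported fit, 1 by DESeq2 (MT-ND4) and 0 to 2 when each library was left out, with MT-ND4 and MT-TN without sh-NC 1 and MT-TL1 without sh-IGF2BP3 3. It was 0 in each other alternative. The difference in mitochondrial share was −5.98 percentage points of the summed FPKM, against −1.53 of the counts. Of the nuclear genes listed, DESeq2 called 12, all higher, and edgeR 0.

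Of 507 alternative values of the tested genes, 33 had the opposite sign, all of genes not called. MT-ND1 (0.05) was at −0.0026 with upper-quartile scaling, −0.0227 in the 3 limma fits and −0.0236 to 0.11 with a library left out. With GC and length trends removed, MT-ATP8 was at 0.066, MT-TM at 0.035, MT-TC at 0.088, MT-TK at 0.43, MT-TG at 0.69, MT-TR at 0.27, MT-TH at 0.38, MT-TL2 at 0.54 and MT-TT at 0.26, which put 11 of the 15 tested tRNA genes above 0, against 3 in the reported fit. MT-TY was at −0.0322, −0.0326 and −0.0322 in the limma fits. With a library left out, MT-CO2 was at −0.183 to 0.0111, MT-TV at −1.27 to 0.013, MT-TI at −0.0984 to 0.317, MT-TM at −0.795 to 0.108, MT-TY at −0.231 to 0.311, MT-TK at −0.649 to 0.169, MT-TG at −0.272 to 0.143, MT-TL2 at −0.215 to 0.149, MT-TE at −0.873 to 0.114 and MT-TT at −0.448 to 0.0154.

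The series' design speaks of pairs but the labels do not say what same-numbered libraries share. Their deviations correlated at −0.284, −0.186 and −0.0433, so they were taken to share only a number. With the replicate block, 0 mitochondrial genes were called and the median was −0.302. The number of libraries, 3 a group, limits every comparison, and 13 tRNA genes had fewer than 100 counts in every library.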
